A study of Homo sapiens with 2 samples.

Results

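The genes described here are 40 S-phase and DNA replication genes, taken as a fixed list of symbols from among the 30796 genes in the deposited matrix. All 40 symbols matched 1 Ensembl identifier each. They were measured in MDAMB468 and CAL51, 2 established human lines of triple-negative breast cancer, with 1 Drop-seq library per line. Drop-seq captures single cells in droplets with barcoded beads and counts each captured messenger RNA 3′ end once through its unique molecular identifier (UMI). The labels name no treatment of either line. With 1 library per line no difference between the lines has a replicate check, and the 95% confidence intervals (CI) allow for counting error alone.

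Before a cell divides it copies its DNA once. In G1 the ORC complex, CDC6 and CDT1 load the ring-shaped MCM helicase onto origins, and at the start of S phase CDC45 and the GINS complex turn the loaded rings into active helicases. Polymerases then copy the strands behind a sliding clamp, PCNA, while ribonucleotide reductase and thymidylate synthase supply nucleotides and histone chaperones rebuild chromatin. Most of these genes are known targets of E2F transcription factors, which are held back by the retinoblastoma protein until late G1, so their messenger RNAs peak around the G1 to S transition in cycling cells.

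To see how many of these genes hold known promoter words, the 250 bases before each RefSeq transcript start (build GRCh38.p14) were searched. The E2F words were TTTCCCGC, TTTCGCGC, TTTGCCGC and TTTGGCGC on both strands. RefSeq windows were matched for 31 of the 40 genes, with 42 windows in all because some genes have several starts. An E2F word stood in 15 of these 42 windows (35.7%), belonging to 14 genes, against 979 of all 35116 windows (2.79%). The NF-Y word CCAAT stood in 27 of the 42 windows (64.3%) and in 32.0% of all windows. The CHR word TTTGAA, known from genes of mitosis, stood in 4 of the 42 (9.52%) and in 13.3% of all windows. An E2F word and CCAAT stood together in 12 of the 42 windows (28.6%) and in 1.02% of all windows. Neighbouring starts of 1 gene share bases, so the windows are not independent, and a word is a description of letters and not a measured binding site. The windows of all genes were not matched to the 42 in base composition. 6 windows are printed 5′ to 3′ on the gene's strand, chosen because they hold an E2F word, lie outside annotated exons and belong to genes that differ in how their levels compare between the lines. Capitals mark the E2F words in either orientation.
PCNA, the sliding clamp (chr20:5126654-5126701, minus strand): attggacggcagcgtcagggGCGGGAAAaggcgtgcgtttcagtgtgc
MCM6, a helicase subunit (chr2:135876502-135876615, minus strand): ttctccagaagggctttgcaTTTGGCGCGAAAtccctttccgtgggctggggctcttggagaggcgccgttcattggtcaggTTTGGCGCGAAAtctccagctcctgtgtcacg
HELLS, a chromatin remodeller (chr10:94545692-94545787, plus strand): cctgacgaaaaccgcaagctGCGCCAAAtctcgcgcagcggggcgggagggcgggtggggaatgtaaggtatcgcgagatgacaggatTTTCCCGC
POLA1, the catalytic subunit of DNA polymerase alpha (chrX:24693761-24693808, plus strand): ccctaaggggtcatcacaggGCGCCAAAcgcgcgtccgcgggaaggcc
GMNN, which encodes geminin, at its downstream start (chr6:24775313-24775360, plus strand): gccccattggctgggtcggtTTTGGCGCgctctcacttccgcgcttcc
CASP8AP2, a histone gene expression factor (chr6:89829711-89829758, plus strand): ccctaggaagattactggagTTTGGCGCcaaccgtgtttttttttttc
The MCM6 window was the richest of the 6, with 4 words in 2 overlapping pairs, which began between 152 and 86 bases before the start. HELLS held 2 words and each of the others 1. A gene with no word in its window, such as MCM2, is only one whose window lacks these letters.

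The MDAMB468 library held 306 barcodes with 5501900 UMIs and the CAL51 library 1377 barcodes. The sequences of 31 CAL51 barcodes also occurred under the MDAMB468 name. These 31, with 0.827% of the CAL51 UMIs, were left out, which left 1346 CAL51 barcodes with 16223444 UMIs. Median depths were 10016.5 and 8635 UMIs, and the median mitochondrial share was 6.04% in MDAMB468 and 4.25% in CAL51. Satellite barcodes, which differ by 1 base from another barcode in their line that is 5 or more times as deep, numbered 64 in MDAMB468 and 7 in CAL51. The epithelial keratin gene KRT18 stood at 555 CPM (the gene's counts per 1e6 UMIs of the library) in MDAMB468 and 1555 CPM in CAL51. KRT8 stood at 764 and 919 CPM, while the epithelial genes EPCAM (867 and 283 CPM) and KRT19 (1934 and 30.6 CPM) were higher in MDAMB468. The keratin gene KRT7 had 5243 and 0 UMIs. ESR1, the estrogen receptor gene, had 3 and 0 UMIs, PGR 1 and 1, and ERBB2 39 and 262. The leukocyte gene PTPRC had 0 and 3.

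Between the lines, the replication genes were mostly lower in MDAMB468, but unevenly so. Their summed level was 4263 CPM in MDAMB468 (23454 UMIs) and 6030 CPM in CAL51 (97827 UMIs), 1.41-fold higher in CAL51 (CI 1.39 to 1.43). All 40 had the 20 UMIs over both lines required of a gene to be compared. The log2 difference is that of CPM + 1, MDAMB468 minus CAL51. On that scale the differences of low genes are understated. The 40 genes had a median log2 difference of -0.65, against -0.13 for all 15347 genes compared, and ran from -2.12 for MCM2 to 0.70 for DSCC1. 35 of the 40 (87.5%) were lower in MDAMB468, as were 55.1% of all genes compared and 59.0% of those in the range of mean CPM of the 40. 29 lay below the median of all genes. Scaling to the total without mitochondrial and ribosomal protein genes changed the split to 30 lower and 10 higher, and giving each barcode the same weight changed it to 31 and 9. 14 of the 40 (35.0%) were at least 2-fold lower in MDAMB468, where the background over all genes compared was 18.6%. Genes within that range of mean CPM, a comparison added after the data were seen, gave 17.4%, and 11.1% at least 2-fold higher. None of the 40 was at least 2-fold higher in MDAMB468, where the background was 15.8%. With a pseudocount of 10 CPM in place of 1 the number at least 2-fold lower became 9, and without mitochondrial and ribosomal protein genes in the total it became 10. The share of all genes is not given for these settings, and the 18.6% does not apply to them. The median of the 40 minus that of all genes was -0.52 and -0.51 there, beside -0.52 in the main setting. Counts of 9 genes with named pseudogenes (PCNA, FEN1, RPA2, RRM2, TYMS, NASP, TIPIN, UNG and RAD51AP1) are uncertain. So are those of 11 genes that overlap another measured gene (MCM2, GINS2, POLA1, PRIM1, POLD3, FEN1, TYMS, CHAF1B, HELLS, UBR7 and CCNE2), because the strand setting of the counting is not known.

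**Figure D1:**
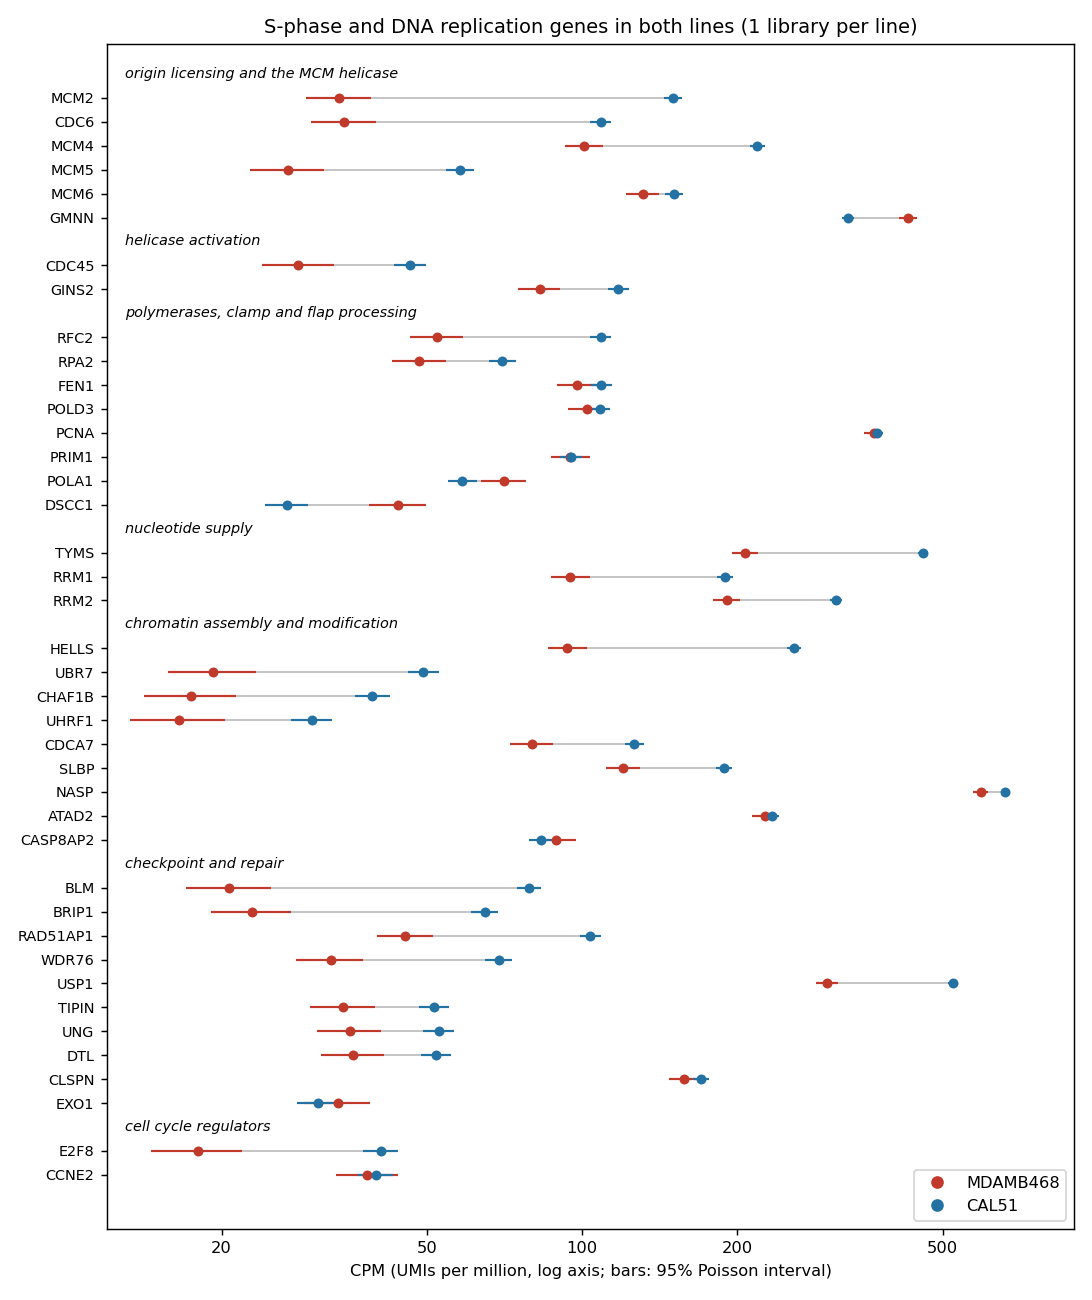
Level of each gene in CPM on a log axis, grouped by role, for MDAMB468 (red) and CAL51 (blue), 1 library each, with bars for the 95% Poisson interval of the count. MCM2, BLM and CDC6 show the widest gaps, while PCNA, PRIM1 and ATAD2 nearly coincide and DSCC1 and GMNN lie to the right in MDAMB468.

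The genes of origin licensing and the MCM helicase held the largest gap. MCM2 (ENSG00000073111; GRCh38, chromosome 3, 127598223 to 127622436), a subunit of the helicase ring, was at 33.8 CPM in MDAMB468 (CI 29.1 to 39) and 150.0 CPM in CAL51 (CI 144 to 156). Its level was 4.44-fold higher in CAL51 (CI 3.82 to 5.18). CDC6 (ENSG00000094804; chromosome 17, 40287633 to 40304657), which helps load the ring, was at 34.5 CPM (CI 29.8 to 39.8) and 109 CPM (CI 104 to 114), 3.15-fold higher in CAL51 (CI 2.71 to 3.68). MCM4 and MCM5, partners of MCM2 in the same ring, stood at 101 against 219 CPM and at 26.9 against 58.0 CPM (log2 differences -1.11 and -1.08), smaller differences than that of MCM2. MCM6, from the same ring, was much closer, with 131 CPM (CI 122 to 141) and 151 CPM (CI 145 to 157), a log2 difference of -0.20. The genes of 1 complex were therefore not lower by a common factor. GMNN (ENSG00000112312; chromosome 6, 24774931 to 24786099), whose product geminin blocks a second round of licensing, went the other way, at 428 CPM in MDAMB468 (CI 411 to 446) and 328 CPM in CAL51 (CI 319 to 337). Its ratio was 1.31 in favour of MDAMB468 (CI 1.24 to 1.37). GMNN, DSCC1 and POLA1 were the 3 genes whose log2 difference was above 0 in all 10 other settings, while 29 were below 0 in all of them and 8 took both signs. Some of the 10 could not change a sign. A pseudocount added to both lines cannot turn it, and all 40 genes passed the filter on low counts with or without it.

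Both helicase activators were lower in MDAMB468. CDC45 was at 28.2 CPM (CI 23.9 to 33.0) against 46.4 CPM (CI 43.1 to 49.8), and GINS2 at 82.7 CPM (CI 75.3 to 90.7) against 118 CPM (CI 112 to 123). Neither passed 2-fold, with log2 differences of -0.70 and -0.50.

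Of the role groups, the 8 genes for polymerases, clamp and flap processing differed least, with a median log2 difference of -0.05. Among them RFC2 alone was at least 2-fold lower in MDAMB468 (12.5%, background 18.6%). These 8 genes are not the whole fork. Polymerase, primase and clamp loader genes of a second list, described below, ran from -1.35 to 0.38. PCNA (ENSG00000132646; chromosome 20, 5114953 to 5126626), the sliding clamp, was at 367 CPM in MDAMB468 (CI 351 to 384) and 373 CPM in CAL51 (CI 364 to 382), so that the ratio was 0.985 (CI 0.936 to 1.04). PRIM1, the small primase subunit, was at 94.9 and 95.2 CPM, with a ratio of 0.996 (CI 0.900 to 1.10). POLD3, an accessory subunit of DNA polymerase delta, and FEN1, the flap endonuclease, had ratios of 0.944 (CI 0.857 to 1.04) and 0.896 (CI 0.812 to 0.987). The sign of the log2 difference of PCNA, PRIM1 and POLD3 changed between settings, so no direction is given for them. That of FEN1 was below 0 in all 10, some of which could not change it. RFC2, a subunit of the clamp loader, was at 52.3 CPM (CI 46.5 to 58.8) and 109 CPM (CI 104 to 114), 2.07-fold higher in CAL51 (CI 1.83 to 2.36). RPA2, a subunit of the single-strand binding complex, had a smaller difference, with 48.3 and 70.1 CPM (log2 difference -0.53). DSCC1 (ENSG00000136982; chromosome 8, 119833976 to 119856010), part of an alternative clamp loader with a role in sister chromatid cohesion, had the highest difference of the 40. It was at 44.0 CPM in MDAMB468 (CI 38.6 to 49.9) and 26.8 CPM in CAL51 (CI 24.3 to 29.4), a ratio of 1.64 in favour of MDAMB468 (CI 1.40 to 1.93). POLA1 (ENSG00000101868; chromosome X, 24693919 to 24996986) was at 70.5 CPM (CI 63.7 to 77.9) and 58.6 CPM (CI 55.0 to 62.5), a ratio of 1.2 (CI 1.07 to 1.36).

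Nucleotide supply was lower as a group. TYMS, thymidylate synthase (ENSG00000176890; chromosome 18, 657604 to 673578), was at 207 CPM in MDAMB468 (CI 195 to 219) and 457 CPM in CAL51 (CI 447 to 468), 2.21-fold higher in CAL51 (CI 2.08 to 2.35). Both ribonucleotide reductase subunits were also lower in MDAMB468: RRM1 was at 94.9 and 189.5 CPM and RRM2 at 190.5 CPM (CI 179 to 202) and 311 CPM (CI 302 to 319). RRM2 was 1.63-fold higher in CAL51 (CI 1.53 to 1.75). The summed level of these 3 genes was 1.95-fold higher in CAL51 (CI 1.87 to 2.03), the widest summed gap of the 7 role groups. By the median log2 difference the origin licensing group was farther from 0, at -1.09 beside -0.99 for nucleotide supply.

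Among the 9 chromatin factors the log2 differences ran from -1.45 to 0.09. Of these genes 3 (33.3%, background 18.6%) were at least 2-fold lower in MDAMB468, a share that rests on few genes. HELLS (ENSG00000119969; chromosome 10, 94501434 to 94613905) was at 93.6 CPM in MDAMB468 (CI 85.7 to 102) and 258 CPM in CAL51 (CI 250 to 266), 2.75-fold higher in CAL51 (CI 2.51 to 3.02). UBR7, a ubiquitin ligase family gene, and CHAF1B, a subunit of the chromatin assembly factor CAF-1, also passed 2-fold, with log2 differences of -1.31 and -1.12. CDCA7, which works with HELLS, UHRF1, which recruits the maintenance DNA methyltransferase, and SLBP, which binds the 3′ ends of histone messages, lay between -0.65 and -0.82. NASP, a histone chaperone, was at 592 CPM (CI 572 to 613) and 660 CPM (CI 648 to 673). ATAD2, a bromodomain ATPase, was at 226 and 233 CPM, and CASP8AP2 at 89.1 CPM (CI 81.4 to 97.3) and 83.3 CPM (CI 79.0 to 87.9). The ratio was 0.968 for ATAD2 (CI 0.907 to 1.03) and 1.07 for CASP8AP2 (CI 0.962 to 1.19), and for both the sign changed between settings.

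Of the 10 checkpoint and repair genes, 4 (40%) were at least 2-fold lower in MDAMB468, where the background over all genes compared was 18.6%. The group is small for such a share. BLM (ENSG00000197299; chromosome 15, 90717327 to 90816165), a RecQ helicase, was at 20.7 CPM (CI 17.1 to 24.9) and 78.9 CPM (CI 74.6 to 83.3), 3.81-fold higher in CAL51 (CI 3.14 to 4.65). BRIP1, another DNA helicase, was at 22.9 CPM (CI 19.1 to 27.3) and 64.8 CPM (CI 60.9 to 68.8), 2.83-fold higher in CAL51 (CI 2.35 to 3.43). RAD51AP1, a recombination cofactor, and WDR76 had log2 differences of -1.17 and -1.06. USP1, the deubiquitinase that acts on PCNA, was at 299 and 524 CPM. TIPIN, a replication fork protein, UNG, the uracil glycosylase, and DTL, a ubiquitin ligase adaptor, lay between -0.52 and -0.57. CLSPN, which encodes the checkpoint mediator claspin, was at 157 and 170.1 CPM. EXO1, an exonuclease, was at 33.6 CPM (CI 29 to 38.8) and 30.7 CPM (CI 28.1 to 33.5), and its ratio was 1.10 (CI 0.920 to 1.30), with both signs over the settings. CLSPN also took both signs.

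The cell cycle regulators of the list split. E2F8, a repressor of the E2F family, was at 18.0 CPM in MDAMB468 (CI 14.6 to 21.9) and 40.7 CPM in CAL51 (CI 37.6 to 43.9). CCNE2, cyclin E2, was at 38.4 CPM (CI 33.4 to 43.9) and 39.8 CPM (CI 36.8 to 43.0). The first was 2.26-fold higher in CAL51 (CI 1.83 to 2.82), and for the second the interval of the ratio ran from 0.821 to 1.13.

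A second list of 56 replication genes outside the 40 had a median log2 difference of -0.51, with 44 lower and 12 higher in MDAMB468, where 55.1% of all genes compared were lower. At least 2-fold lower were 13 (23.2%, background 18.6%) and at least 2-fold higher was 1 (background 15.8%). The 13 became 18 with TMM factors, 19 with the median of ratios and 10 with a pseudocount of 10 CPM, settings for which no background is given. WDHD1, a fork protein that links helicase and polymerase, was lowest at 37.3 and 134.6 CPM (log2 difference -1.83), followed by CDC25A, a phosphatase that activates cyclin-dependent kinases (-1.78), and TIMELESS, the partner of TIPIN (-1.45). DNMT1, the maintenance DNA methyltransferase, was highest, with 1022 CPM in MDAMB468 and 364 CPM in CAL51, a ratio of 2.81 (CI 2.71 to 2.92). CHEK1, the checkpoint kinase, and CCNE1, cyclin E1, followed at log2 differences of 0.98 and 0.80. The 54 G2 and M phase genes, which mark dividing cells and share TOP2A with the second list, were also lower in MDAMB468 when summed (9453 against 11951 CPM). Their median was -0.43. The part of the number of dividing cells in the replication gene difference was not tested.

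To see whether position went with these differences, each gene was set beside the 10 nearest compared genes on each side in the GENCODE release 29 annotation. TYMS, near a chromosome end, had 15 such neighbours in all. Across the 40 genes, the gene's own log2 difference and the median of its neighbours had a Pearson r of 0.36 and a Spearman rho of 0.35, given as a description over 40 genes of the same 2 libraries. 32 of the 40 lay below the median of their neighbours, where 50.2% of all genes did. MCM2 was at -2.12 beside a neighbour median of -0.33, and TYMS at -1.14 beside 0.58. RRM2 (-0.70 beside 0.57) and GINS2 (-0.50 beside 0.65) were likewise lower in MDAMB468 among neighbours that were higher there. MCM4 and SLBP, by contrast, lay close to their neighbours (-1.11 beside -0.81 and -0.65 beside -0.71). ATAD2 (-0.05 beside 0.69) and POLD3 (-0.08 beside 0.85) were near equal in the lines within surroundings higher in MDAMB468. Copy number was not measured here.

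**Figure D2:**
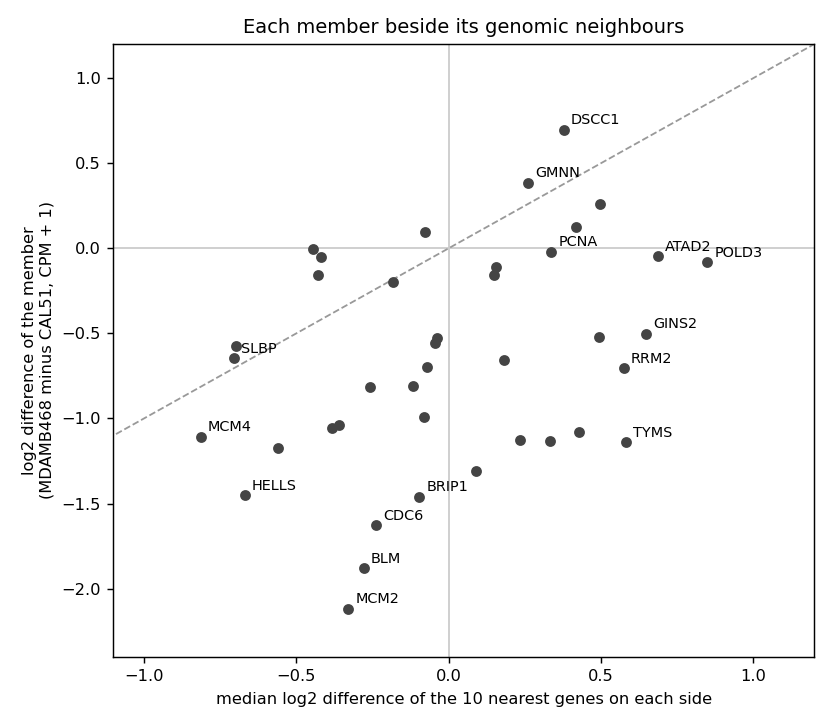
Log2 difference of each of the 40 genes (vertical, MDAMB468 minus CAL51, CPM + 1) against the median log2 difference of its nearest compared genes (horizontal), with the line of equal values dashed. Most points lie below the dashed line, MCM2 farthest down at -2.12, and DSCC1 and GMNN lie above it.

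Between cells of a line, the replication genes varied together. Cells were thinned at random to 5000 UMIs each so that all had the same depth, which kept 212 MDAMB468 cells and 1071 CAL51 cells and left out 94 and 275 shallower ones. For each gene, Pearson's r was taken between log(1 + UMIs) of the gene and of the summed other 39. The median r was 0.23 in MDAMB468 and 0.24 in CAL51. An r of at least 0.1 was reached by 36 of 40 genes in MDAMB468 and 39 of 40 in CAL51, where the background among genes outside the list was 10.1% and 4.26%. Among outside genes with a mean in the range of the 40 it was 10.4% and 5.65%. Pairs of single genes were too sparse for more than a summary: over 780 pairs the median r was 0.07 in MDAMB468 and 0.08 in CAL51, and pairs within a role group (median 0.07 in both lines) did not stand above pairs across groups (0.07 and 0.08). All these cells of a line share 1 library. Thinning to another depth also changed which cells were deep enough to be kept, and the parts of depth and of the cells kept were not tested. Thinning to 2500 UMIs, with 306 and 1346 cells, gave a median r of 0.12 and 0.16, with 26 and 33 genes at 0.1 or more, and thinning to 10000, with 153 and 558 cells, gave 0.32 and 0.31. The share of outside genes at 0.1 or more is not given for these depths, and the shares at 5000 UMIs do not apply to them.

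RRM2, the regulated reductase subunit, and PCNA were among the 3 genes with the highest r in both lines. In MDAMB468 the r of RRM2 was 0.453, that of CLSPN 0.451 and that of PCNA 0.445, and in CAL51 PCNA was at 0.426, RRM2 at 0.410 and CLSPN at 0.330. In CAL51, PCNA went from 199 CPM in the quartile of cells lowest in the other 39 genes to 584 CPM in the highest quartile, a ratio of 2.94 (CI 2.56 to 3.39). In MDAMB468 it went from 216 to 645 CPM, a ratio of 2.98 (CI 2.23 to 4.02). CCNE2 had a wider spread between these quartiles in CAL51, from 10.7 to 88.8 CPM (16 and 119 UMIs; ratio 8.30, CI 4.90 to 15). NASP was flatter between cells, with ratios of 1.69 (CI 1.37 to 2.11) in MDAMB468 and 1.62 (CI 1.47 to 1.77) in CAL51. CDCA7 had the lowest r of the 40 in CAL51, at 0.09, and 0.10 in MDAMB468, though it was better covered than many (means of 0.617 and 0.448 UMIs per thinned cell). UBR7 had the lowest r in MDAMB468, at 0.02, on a mean of 0.0896 UMIs per cell. Low genes had low r in general, since the r of a gene and the log2 of its mean had a Pearson r of 0.70 across the 40 genes in MDAMB468 and 0.69 in CAL51. The r values of the 40 genes in one line and the other had a Pearson r of 0.78.

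**Figure D3:**
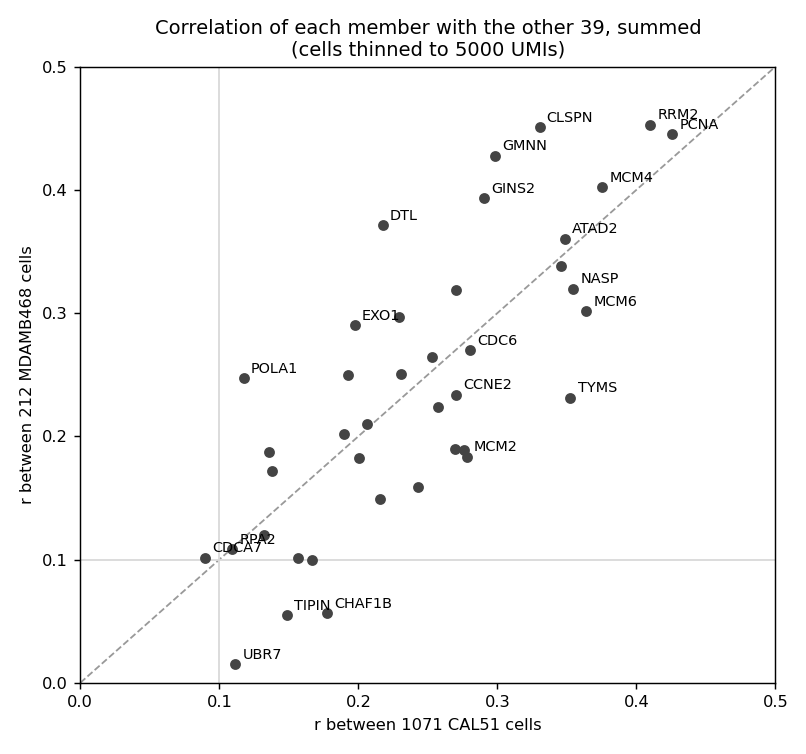
Pearson r of each of the 40 genes with the other 39 summed, between 1071 CAL51 cells (horizontal) and 212 MDAMB468 cells (vertical), all thinned to 5000 UMIs, with grey lines at 0.1 and equal values dashed. PCNA and RRM2 lie at the upper right in both lines, and UBR7 lies near 0 in MDAMB468.

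The lower level in MDAMB468 was seen along most of the range of cells and not only in the highest. At 5000 UMIs, a CAL51 cell held a median of 29 UMIs of the 40 genes, with a lower decile of 15 and an upper decile of 46. An MDAMB468 cell held a median of 20, with 9.1 and 36.9 at the same deciles. MDAMB468 cells had a standard deviation over the mean of 0.494 and CAL51 cells one of 0.401. The variance over the mean was 5.38 and 4.85, where counting error alone would give 1. In MDAMB468 the median cell was at 4000 CPM for the summed genes and in CAL51 at 5800 CPM. For cells thinned to 10000 UMIs these medians were 3700 and 5850 CPM.

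**Figure D4:**
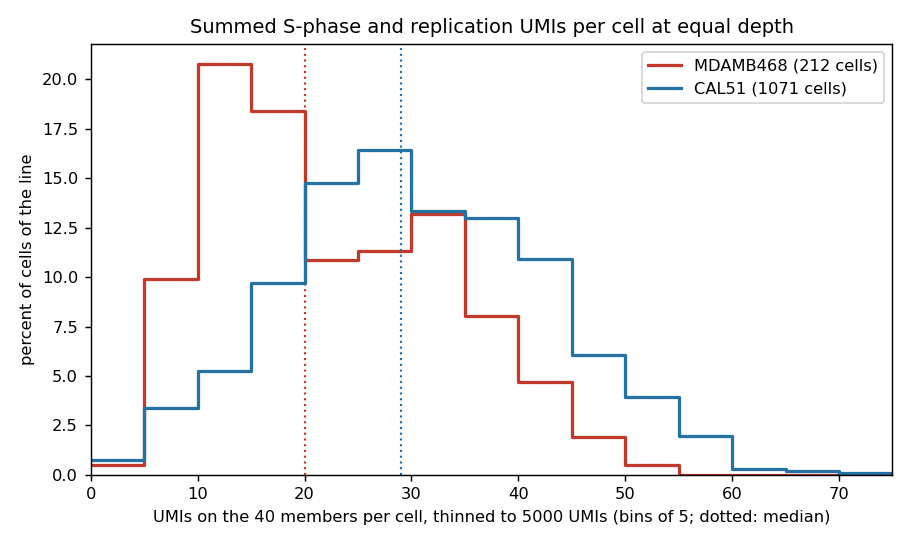
Percent of the cells of each line (vertical) by their UMIs on the 40 genes after thinning to 5000 UMIs per cell (horizontal, bins of 5), with dotted lines at the medians of 20 for MDAMB468 and 29 for CAL51. The MDAMB468 cells are most frequent between 10 and 20 UMIs, left of most CAL51 cells.

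Cells were then compared at a given count of the 54 G2 and M phase genes, in bins chosen after the data were seen. Among cells with 21 to 40 such UMIs, the 40 replication genes summed to 27.6 ± 11.8 UMIs in MDAMB468 (SD over 50 cells) and 34.8 ± 12.8 in CAL51 (239 cells). The pattern repeated at 41 to 60 UMIs, with 27.4 ± 9.87 (59 cells) and 34.6 ± 10.7 (326 cells). The gap widened among cells with 61 to 80, where the sums were 17.2 ± 8.26 (22 cells) and 29.2 ± 10.4 (236 cells), and above 80 they were 14.2 ± 7.31 (28 cells) and 24.3 ± 7.16 (206 cells). Among cells with at most 20 the order turned, with 17.1 ± 7.52 in MDAMB468 (53 cells) and 13 ± 10.6 in CAL51 (64 cells). Without satellite barcodes, and with the cells thinned anew, these last sums were 17.1 (51 cells) and 13.5 (68 cells). The new thinning also changes which cells fall in a bin. The SD describes cells of 1 library and is no error of the line. In these bins the lower sums of MDAMB468 lay above 20 G2 and M phase UMIs. Equal counts need not mark like cells, since the mean count was 43.7 in MDAMB468 and 58.6 in CAL51. By each line's own quartiles of that count, MDAMB468 had the lower mean sum in every quartile. From the lowest to the highest quartile the sums were 17.1 and 28.6, 28.5 and 36.3, 26.1 and 30.7, and 16.1 and 24.9. The order in the lowest bin and the widening gap thus depended on the binning.

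The genes differed in how their levels compared between cells high and low in G2 and M phase genes. The cells of each line were divided into quartiles by the summed G2 and M phase genes, and the highest quartile was set against the lowest, with 0.01 UMIs per cell added to each mean. Only the highest and lowest quartile enter this ratio, so a gene called higher may still peak in the quartiles between. In CAL51, 14 of the 40 were at least 1.5-fold lower in the highest quartile (background 5.43%) and 1, RAD51AP1, at least 1.5-fold higher (background 6.85%). The 14 were CDC6, MCM2, MCM4, MCM5, MCM6, GINS2, PCNA, DSCC1, CHAF1B, UHRF1, UNG, DTL, WDR76 and CCNE2. In MDAMB468, 11 were lower (background 18.2%) and 10 higher (background 20.9%). The 10 were CDC45, POLA1, RFC2, DSCC1, RRM1, RRM2, ATAD2, EXO1, BLM and RAD51AP1. The MDAMB468 quartiles hold 46 to 61 cells, and 1.5-fold differences were common among all genes there. MCM2, MCM4, MCM6, GINS2, UNG, DTL, WDR76 and CCNE2, 8 of the 14 and 8 of the 11, were in both lower sets. DSCC1 went opposite ways from the lowest to the highest quartile, from 15.1 to 53.8 CPM in MDAMB468 (4 and 14 UMIs) and from 35.1 to 18.5 CPM in CAL51. The share of all genes lower in both lines is not given, so the overlap has no background. Some of these MDAMB468 calls rest on few UMIs in the lowest and highest quartile: MCM2 had 11 and 2, CCNE2 10 and 3 and WDR76 9 and 4. CCNE2 in CAL51 was at 56.0, 59.0, 35.3 and 13.1 CPM from the lowest to the highest quartile. UNG followed a like course with 69.4, 65.7, 45.6 and 25.4 CPM. MCM6 was highest in the second quartile at 224 CPM and lowest in the highest at 76.2 CPM (CI 61.9 to 92.7). RAD51AP1 went the other way, from 64.9 CPM (CI 52.0 to 80.1) in the lowest to 106 CPM (CI 89.2 to 125) in the highest quartile. RRM2 also stayed high late, with 208, 388, 344 and 278 CPM, and was the gene of the 40 with the highest r with the summed G2 and M phase genes in CAL51, 0.16. In MDAMB468 its course was 18.9 (5 UMIs), 338, 230 and 181 CPM, and its r was 0.28. The lowest quartile thus had far less RRM2 than the rest in MDAMB468, while MCM6 was at 223 CPM in the same cells. None of the 40 had a higher r with the G2 and M phase genes than with the other 39 replication genes, in either line. For RAD51AP1 the 2 values were nearly equal, at 0.1346 and 0.1354 in CAL51 and 0.182 and 0.187 in MDAMB468. Those of DSCC1 in MDAMB468 were 0.114 and 0.120.

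**Figure D5:**
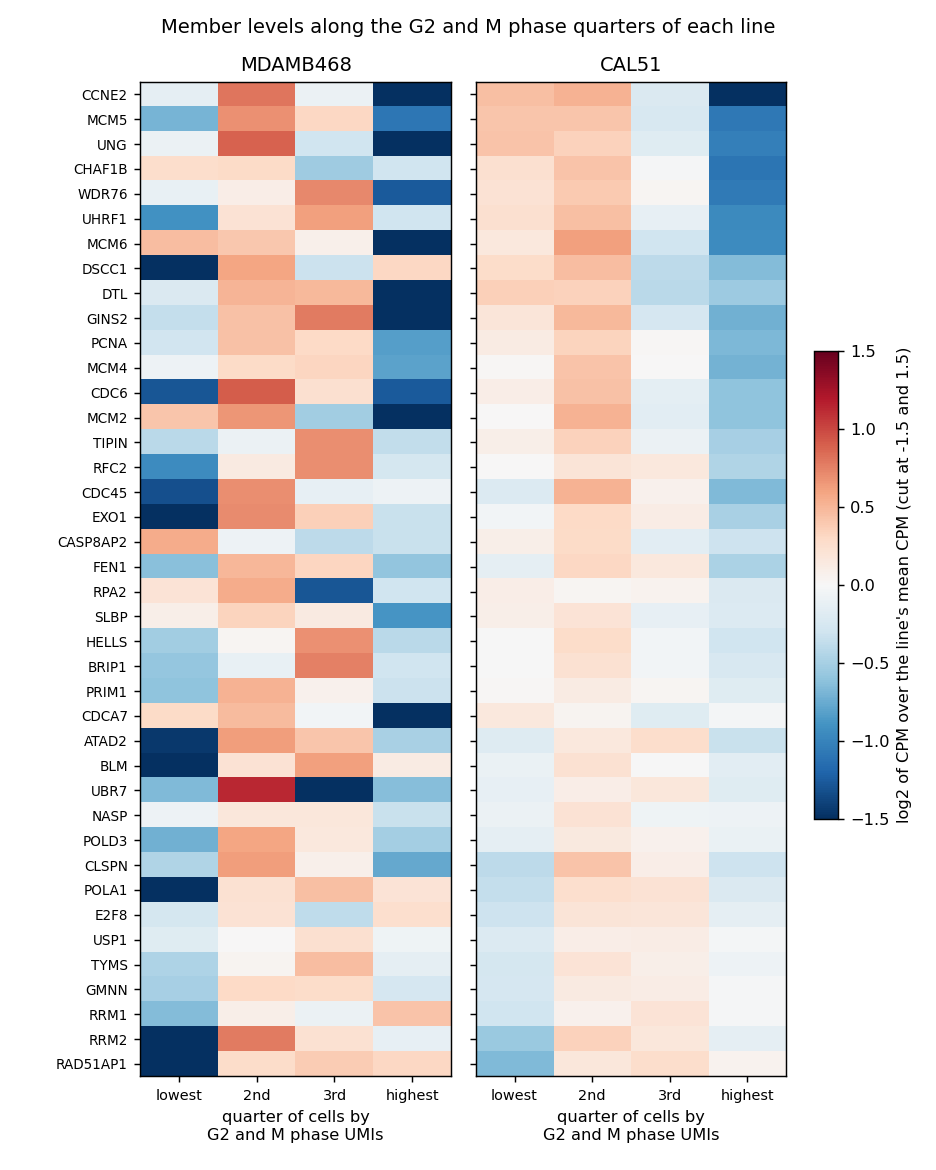
Level of each of the 40 genes in quartiles of the cells of each line ordered by summed G2 and M phase UMIs (columns), as log2 of the CPM over the line's mean CPM, with rows ordered by the CAL51 ratio of highest to lowest quartile. In CAL51, CCNE2 and UNG at the top fall towards the highest quartile and RRM2 and RAD51AP1 at the bottom are lowest in the lowest quartile. MDAMB468 quartiles hold 46 to 61 cells, and the colours of its low genes rest on few UMIs.

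Outside the list, the genes most like the summed 40 were shared in part between the lines. In MDAMB468 the 8 with the highest r were the histone genes H4C3 (0.60), H1-4 (0.49), H1-1 (0.48) and H1-3 (0.47), FAM111B (0.49), a protease with a role at replication forks, DNMT1 (0.43), MCM10 (0.38), a replication initiation factor, and CDCA5 (0.36), a cohesion factor. Histone genes have similar copies, so their counts are uncertain. In CAL51 they were PCLAF (0.47), a PCNA-binding factor, the histone variant gene H2AZ1 (0.39), TUBA1B (0.39), a tubulin, DUT (0.36), which removes dUTP, HMGN2 (0.36), a nucleosome binder, MCM3 (0.35), DNMT1 (0.34) and DEK (0.33), a chromatin protein. DNMT1 was in both sets of 8. Of the 40 genes most alike in each line, 16 were shared, an overlap for which no background is given. Of the genes named for MDAMB468, H4C3 had an r of 0.30 in CAL51, MCM10 0.28, FAM111B and H1-3 0.27, H1-4 0.25 and CDCA5 0.13, and H1-1 had 0 UMIs in the thinned CAL51 cells. Of those named for CAL51, MCM3 had an r of 0.32 in MDAMB468, DUT 0.31, PCLAF 0.25 and DEK 0.24. The other 3 were below 0 in MDAMB468, HMGN2 at -0.25, TUBA1B at -0.19 and H2AZ1 at -0.05. The difference in r between the lines was not tested. Of the second list of replication genes, 31 of 52 with enough UMIs reached an r of 0.1 in MDAMB468 (median 0.13, background 10.1%) and 33 of 55 in CAL51 (median 0.13, background 4.26%).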

How the data were processed

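The values deposited by the authors are raw UMI counts, 1 matrix of genes by barcodes for both lines, all whole numbers and not normalised. STARsolo is named, per the submitters' processing notes, without a version. No build, annotation, strand setting or barcode selection was given in the sources used here. Each barcode was assigned to its line by its name. Identifiers were paired with symbols by the gene name table supplied (30730 of 30796) and with positions from GENCODE release 29 (29416 identifiers), whose build may not be the authors'.

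Counts were summed per line and given as CPM, with exact Poisson intervals and ratios with exact intervals conditional on the total count. Cells are not replicates, so no test across samples was run and no p-value was computed. Genes needed 20 UMIs over both lines, and genes between cells a mean of 0.05 UMIs per thinned cell. No doublet caller was run and doublets remain. Of the 40 genes, 11 overlap another gene with at least 100 UMIs (PRIM1 with NACA, TYMS with ENOSF1 and TYMSOS, FEN1 with TMEM258 and FADS2, for example) and 9 have named pseudogenes (PCNA, RRM2, TYMS and RPA2 among them). How such reads were divided is not known, so these counts are uncertain.

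The 40 genes, the lists and the tests were chosen with earlier results of these data known. All 40 may be named; the highest and lowest of each role group and the 5 highest and 5 lowest of all are given in full, with the 3 highest and 3 lowest of the second list and the 8 genes most like the 40 in each line. The scripts were tested on simulated data. TMM factors came from edgeR 4.0.16 under R 4.3.3. All else was computed in Python 3.11.15 (scipy 1.17.1, numpy 2.4.6 and pandas 2.3.3) and drawn with matplotlib 3.10.9. Other pseudocounts, scalings, barcode sets, depths and a second random thinning were tried.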

Additional observations from a re-analysis of the deposited data

Results flagged for a closer look

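The 31 CAL51-labelled barcodes whose sequences also occur under MDAMB468 lie outside the comparisons of the lines, yet they held 492 UMIs of the 40 replication genes. That is 3638 CPM (interval 3324 to 3974), beside 3812 CPM (interval 3730 to 3894) in the MDAMB468 barcodes with the same sequences and 6030 CPM in the other CAL51 barcodes. Keeping them moved the median log2 difference of the 40 genes from -0.65 to -0.64.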

How the results depend on the processing

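No paired analysis was possible because each line has 1 library, and for the same reason no replicate could be left out. Over the 10 alternatives the median log2 difference of the 40 genes stayed between -0.79 and -0.54. The number at least 2-fold lower in MDAMB468 fell from 14 to 9 with a pseudocount of 10 CPM and to 10 without mitochondrial and ribosomal protein genes in the total. That of the second list, 13, became 18 with TMM factors, 19 with the median of ratios and 10 with a pseudocount of 10 CPM. The summed CPM of MDAMB468 over CAL51, 0.707, became 0.645 with TMM factors, 0.639 with the median of ratios, 0.764 without mitochondrial and ribosomal protein genes in the total and 0.728 with each barcode weighing the same. Under the last 2, 2 genes of the second list were at least 2-fold higher in place of 1. The share of all genes past 2-fold is not given for any of these alternatives. The median r of a gene with the other 39 in CAL51, 0.237, became 0.160 at 2500 UMIs and 0.307 at 10000 UMIs, over other sets of cells. Scaling moved the median of all genes from -0.13 to between -0.25 and -0.03. The log2 differences of 29 of the 40 genes were below 0 and those of 3 above 0 in all 10 alternatives, and 8 took both signs. The alternatives that changed only the pseudocount or the filter on low counts could not change a sign. At 2500 UMIs, where 306 in place of 212 cells entered, the MDAMB468 median of 0.232 became 0.123, with 26 in place of 36 genes at 0.1 or more. No share of outside genes is given for that depth.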
